A study of Mus musculus with 18 samples.

Results

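The genes described here are those of the mouse major histocompatibility complex (MHC), called H2 in the mouse, and of antigen presentation. They were taken from a table of liver gene expression by name: every gene whose symbol begins with H2-, together with B2m, Cd74, Tap1, Tap2, Tapbp, Nlrc5, Ciita, Ctss, Erap1 and Cd1d1. There were 44 such genes among the 19057 in the table. Of these, 29 belong to class I, 13 to class II, 1 (Cd1d1) to the CD1 family, and 1 (H2-Ke6) carries the H2 name but encodes a hydroxysteroid dehydrogenase with no part in presentation. Only genes that averaged 1 RPKM or more over the 18 libraries were tested, which left 32: 22 of class I, 8 of class II, Cd1d1 and H2-Ke6. RPKM is the read number of a gene divided by its length and by the mapped reads of the library.

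All libraries came from the liver of ICR mice, an outbred stock, at 10 weeks of age, in 6 groups of 3 libraries. Con was the control on regular diet. HS mice were fed high-fat diet starting at 3 weeks and were injected once, at 5 weeks, with 85 mg/kg streptozotocin (STZ), a toxin of the insulin-producing beta cell. A10-FMT and Con-FMT received the same diet and STZ and, from 5 to 7 weeks, microbiota from donor mice, in the form of small-intestinal content pooled within each donor group. The donors had been dosed with alginate oligosaccharide (AOS) at 10 mg/kg (A10-FMT) or were controls (Con-FMT). A10 received 10 mg/kg AOS alone, and HS+A10 received diet, STZ and 10 mg/kg AOS. These 2 groups are known from the sample labels only. The labels do not say whether each library is a separate mouse, so the tests measure the spread between libraries. ICR mice differ from each other in their H2 alleles, and the alleles of these mice were not determined.

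Class I molecules sit on nearly all nucleated cells. A heavy chain pairs with the light chain beta-2-microglobulin and shows peptides from the cytosol, trimmed by Erap1, carried into the endoplasmic reticulum by the transporter Tap1-Tap2 and loaded with the help of tapasin (Tapbp), to CD8 T cells. Class II molecules, an alpha and a beta chain, are made mainly by dendritic cells, macrophages and B cells, and show peptides from endosomes to CD4 T cells. Their groove is held by the invariant chain Cd74 until cathepsin S (Ctss) cuts it and H2-DM exchanges the remnant for peptide. Interferon-gamma induces both classes, through Nlrc5 for class I and Ciita for class II. In the liver, Kupffer cells, dendritic cells and sinusoidal endothelial cells carry class II, while hepatocytes carry class I and secrete the soluble class I molecule H2-Q10.

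In the GRCm38 annotation, which is the same assembly as the mm10 build of the submitters' processing notes, 41 of the 44 genes had a position, and 34 of them lie on chromosome 17. The promoters of 5 genes are shown because they cover the 3 abundant heavy chains (H2-K1, H2-D1 and H2-Q10) and a chain each of class II A (H2-Aa) and class II E (H2-Eb1). Each is the 250 bases before the start site in the RefSeq table for GRCm38.p6, written 5′ to 3′ on the strand of the gene. Capitals mark a palindromic kappaB element, the letters TTTCACTTC (an interferon-response element), TGACG (found in the X2 box) or CCAAT (the Y box), searched on both strands.
H2-K1 (chr17:34000348-34000597, minus strand): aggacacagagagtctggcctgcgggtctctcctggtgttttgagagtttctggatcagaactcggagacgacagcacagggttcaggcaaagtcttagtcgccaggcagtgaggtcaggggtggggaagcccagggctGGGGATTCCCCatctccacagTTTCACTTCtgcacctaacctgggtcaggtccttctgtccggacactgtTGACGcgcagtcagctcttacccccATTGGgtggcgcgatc
H2-D1 (chr17:35262844-35263093, plus strand): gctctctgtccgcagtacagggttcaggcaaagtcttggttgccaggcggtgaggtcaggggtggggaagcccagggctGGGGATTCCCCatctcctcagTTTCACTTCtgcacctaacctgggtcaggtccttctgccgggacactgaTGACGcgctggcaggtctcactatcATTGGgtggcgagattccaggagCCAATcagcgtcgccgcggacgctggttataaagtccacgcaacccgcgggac
H2-Q10 (chr17:35469839-35470088, plus strand): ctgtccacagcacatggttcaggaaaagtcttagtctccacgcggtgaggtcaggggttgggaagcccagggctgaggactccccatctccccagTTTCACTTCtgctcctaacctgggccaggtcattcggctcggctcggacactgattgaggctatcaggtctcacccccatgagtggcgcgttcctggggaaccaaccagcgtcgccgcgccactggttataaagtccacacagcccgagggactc
H2-Aa (chr17:34287824-34288073, minus strand): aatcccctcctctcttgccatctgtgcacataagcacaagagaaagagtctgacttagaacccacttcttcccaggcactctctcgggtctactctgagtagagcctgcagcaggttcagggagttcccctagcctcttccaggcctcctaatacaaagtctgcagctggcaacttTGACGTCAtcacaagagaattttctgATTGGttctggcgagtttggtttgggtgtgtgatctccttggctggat
H2-Eb1 (chr17:34305617-34305866, plus strand): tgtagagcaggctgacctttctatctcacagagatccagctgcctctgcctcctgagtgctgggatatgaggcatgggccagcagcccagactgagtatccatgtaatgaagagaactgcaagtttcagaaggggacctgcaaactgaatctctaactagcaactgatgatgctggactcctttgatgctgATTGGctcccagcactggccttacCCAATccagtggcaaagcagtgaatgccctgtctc
The search used 300-base windows reaching 50 bases past the start, and 30 of the 44 genes had one that was used here. The kappaB element was in 0.0304% of 32851 windows of all genes, and among these genes in those of H2-K1, H2-D1 and H2-Q6. TTTCACTTC was in 0.505% of all windows, in 7 of the 14 tested class I genes with a window and in 0 of 5 tested class II genes. These 7 are heavy chain genes of the same family, so their matches are not independent of each other. The tested class II genes H2-Ab1, H2-Ea-ps and Cd74 were not among those with a window used here. TGACG was in 20.8% of all windows and in 8 of the 14 class I genes and 1 of the 5 class II genes. CCAAT was in 37.4% of all windows and in 12 of 14 and 4 of 5. The H2-Q10 window held TTTCACTTC but none of the other 3. A match is a run of letters in the reference and not a measured site.

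The libraries were checked before the comparisons. Hepatocyte markers summed to between 45969 and 67309 RPKM in every library. No marker of B cells (10 in the table) or of T and NK cells (12) reached a mean of 1 RPKM, and their sums stayed at or below 6.13 and 5.45 RPKM. Con-FMT replicate 3 carried pancreatic acinar mRNAs (21077 RPKM in sum, against 14.1 to 50.2 in the other libraries). Among genes for which the other 2 libraries of a group differed by at least 1 on the log2 scale, Con replicate 3 had an intermediate value for 138 of 140 (98.6%) and A10 replicate 3 for 130 of 135 (96.3%). In the other 16 libraries this share was between 6.52% and 74.6%. The reason was not tested, and counts without them are given below. Con-FMT replicate 2 had the highest class II level of the 18 libraries, and the calls depend on it as described below.

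The most abundant of these mRNAs was B2m, the class I light chain (chr2:122147686-122153083), with 1858 to 2987 RPKM. The heavy chains H2-Q10 (194 to 996 RPKM), H2-D1 (238 to 706) and H2-K1 (260 to 511) followed, and together they made up between 85.3% and 93.5% of the summed RPKM of the 23 heavy chain genes. The class Ib genes H2-T23, which encodes Qa-1 and shows leader peptides to NK cell receptors, and H2-T22, a ligand of gamma-delta T cells, came next, with 41.3 to 112 and 11.8 to 48.8 RPKM. The remaining 11 tested heavy chains (H2-Q4, H2-T10, H2-Q9, H2-Q7, H2-Bl, H2-Q1, H2-Q6, H2-T-ps, H2-Q8, H2-T24 and H2-M3) had means between 1.06 and 13.04 RPKM. Cd1d1, which shows lipids to NKT cells, was at 68.9 to 105 RPKM, and H2-Ke6 was at 56.5 to 86.5 RPKM.

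Class II was lower. Cd74 had 25.3 to 122 RPKM, H2-Aa 12.3 to 55.8, H2-Ab1 8.76 to 53.7 and Ctss 8.78 to 23.9. The E chains H2-Ea-ps and H2-Eb1 and the peptide exchangers H2-DMa and H2-DMb1 had means of 3.02, 2.82, 1.52 and 1.64 RPKM. Summed over the 5 chain genes, class II reached 23.8 to 110 RPKM per library, against 1006 to 1915 RPKM for the class I heavy chains. The 12 genes under the filter were 7 class I genes of the Q, M and T series, none above 0.87 RPKM in a library, and 5 class II genes. Among these, H2-DMb2 alone reached 1 RPKM, with 1.78 in Con-FMT replicate 2. Ciita, the class II regulator, is among those under the filter, and in bulk tissue fewer cells of a type and less RNA per cell cannot be told apart.

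**Figure D1:**
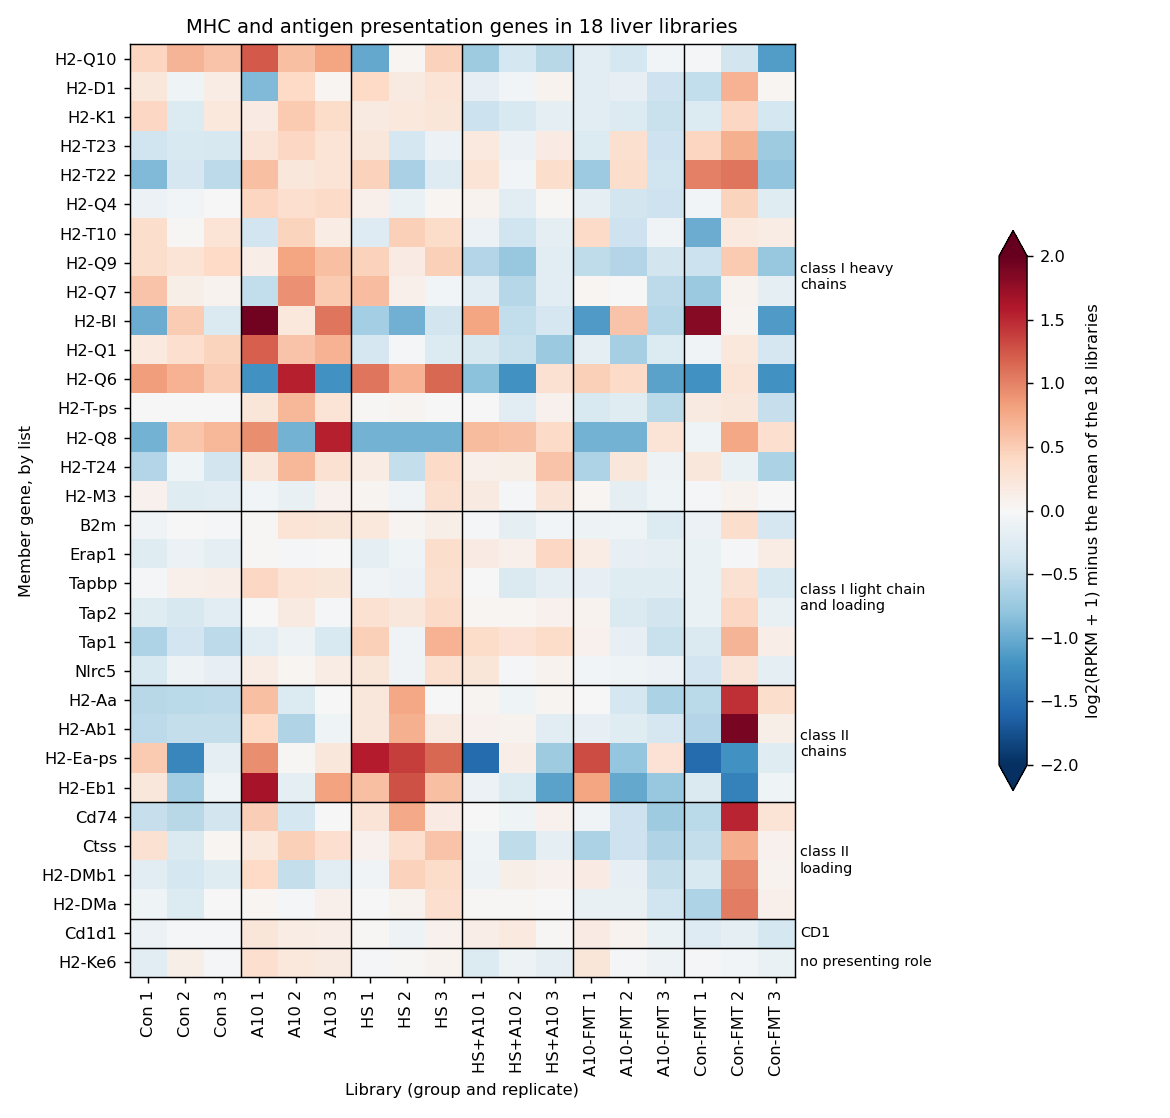
Each row is 1 of the 32 tested genes and each column 1 library, and the colour gives log2(RPKM + 1) minus the mean of that gene over the 18 libraries. Class II of Con-FMT replicate 2 (Cd74 at 122 RPKM) is the reddest block, apart from its H2-Ea-ps and H2-Eb1, and H2-Q6, H2-Q8, H2-Bl, H2-Ea-ps and H2-Eb1 vary between libraries of the same group.

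HS was compared with Con to see what diet and STZ did to the liver. Tap1 and Tap2, the peptide transporter of class I, were higher in HS. So was H2-Ea-ps, the alpha chain of class II E, which is a pseudogene in the reference strain. Tap1 (chr17:34187553-34197225) was at 4.71, 5.70 and 5.04 RPKM in Con and at 11.2, 7.35 and 13.2 in HS. All 3 HS libraries were above all Con libraries, and the log2 change was 0.88 ± 0.21 (SE, n = 3 per group, limma adjusted p = 0.0127). Tap2 (chr17:34203527-34216321) was at 13.04, 12.26 and 13.27 RPKM in Con and at 19.4, 18.3 and 20.6 in HS, again without overlap, a log2 change of 0.56 ± 0.13 (adjusted p = 0.0122). H2-Ea-ps (chr17:34341959-34344645) was at 3.61, 0.30 and 1.83 RPKM in Con and at 8.51, 7.34 and 6.11 in HS. The HS libraries lay above all Con libraries and differed less among themselves than the Con libraries did, and the log2 change was 1.69 ± 0.54 (adjusted p = 0.0437). This call held in 10 of 27 settings that tested the gene, against 26 of 28 for Tap1 and for Tap2. The H2 alleles in these libraries were not determined, so the part of alleles in the H2-Ea-ps values of any group was not tested.

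These 3 of 32 genes (9.38%) compare with 17.7% of the 10204 genes tested, 15.9% higher and 1.87% lower. The median log2 change over all genes was 0.14. With the libraries brought to 1 common median, Tap1 (0.72, adjusted p = 0.0506), Tap2 (0.39, adjusted p = 0.0968) and H2-Ea-ps (1.54, adjusted p = 0.0951) were no longer called and H2-Q1 was called lower (-0.66, adjusted p = 0.0294), so that the split went from 3 higher and 0 lower to 0 higher and 1 lower. Without Con replicate 3 and A10 replicate 3, a check chosen after seeing the data, Tap2 alone was called (0.58, adjusted p = 0.0456).

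Class II was higher in HS for 8 of 8 tested genes, with a median log2 change of 0.86. The class I heavy chains had a median of 0.04, with 10 of 16 higher. Of all 10204 genes 7897 were higher. For 7 of the 8 class II genes, and 11 of the 32 genes of the set, all HS libraries lay above all Con libraries, against 32.6% of all genes. For 1 gene of the set, H2-Q1, all lay below, against 4.17%. Such a separation gives the smallest two-sided p that exact permutation of 6 libraries allows, 0.1. That p takes the libraries as independent, and the separations were not counted without Con replicate 3. H2-Aa, the alpha chain of class II A (chr17:34282744-34287823), was at 13.1, 13.3 and 13.4 RPKM in Con and at 23.3, 34.4 and 19.5 in HS, a log2 change of 0.87 ± 0.36 (adjusted p = 0.102). Its partner H2-Ab1 was at 9.31, 9.62 and 9.55 RPKM in Con and at 16.3, 23.2 and 15.6 in HS (0.86 ± 0.42, adjusted p = 0.158). Cd74 was at 30.0, 28.1 and 32.4 RPKM in Con and at 50.2, 71.2 and 46.9 in HS (0.85 ± 0.36, adjusted p = 0.109).

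The Con libraries were nearly alike for these 3 genes, HS replicate 2 was highest, and the means were 1.94-fold (H2-Aa), 1.94-fold (H2-Ab1) and 1.86-fold (Cd74) higher. None of the 3 passed the threshold in the fit over 18 libraries, which shares 1 estimate of the spread. Without Con-FMT replicate 2 all 3 were called (adjusted p = 0.0296 for H2-Aa, 0.0168 for H2-Ab1 and 0.0235 for Cd74), as they were in a fit of Con and HS alone (adjusted p = 0.0419, 0.0243 and 0.0307). In place of 3 genes of the set, 8 were called without Con-FMT replicate 2, 5 without Con-FMT replicate 1 and 6 in the fit of the 2 groups. The other class II genes had log2 changes of 1.02 (H2-Eb1), 0.52 (H2-DMb1), 0.31 (Ctss) and 0.27 (H2-DMa), none called. After median scaling the class II median was 0.68, with 8 of 8 higher, and the median of all class I genes went from 0.13 (15 of 22 higher) to -0.06 (9 of 22 higher).

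Markers of cells that carry class II are given beside these values. The 11 dendritic cell markers, of which Sirpa makes up most of the sum and 9 average below the filter, summed to 11.2 to 15.3 RPKM in HS and 7.75 to 10.99 in Con, the 14 Kupffer cell and macrophage markers to 190 to 275 and 152 to 229, and the 10 B cell markers to 0.96 to 1.57 and 2.22 to 2.33. The 10 sinusoidal endothelial markers summed to 66.6 to 82.3 RPKM in HS and 59.4 to 69.2 in Con, with 10 of 10 higher (median 0.21) and 1 called, Pecam1 (0.33, adjusted p = 0.0456). No Kupffer marker (0 of 13 tested; 2 at an unadjusted p under 0.05, limma) and no dendritic marker (0 of 2; 0 at that p) was called, and the part of these cells in the class II values was not tested.

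None of the 3 abundant heavy chains was called in HS. H2-K1 was at 471, 291 and 412 RPKM in Con and at 403, 412 and 419 in HS, and H2-D1 at 513, 410 and 485 in Con and at 575, 495 and 527 in HS. Their log2 changes of 0.10 ± 0.19 and 0.19 ± 0.28 were within the error, and after median scaling both were below 0 (-0.09 and -0.0005). H2-Q10 was at 569, 677 and 629 RPKM in Con and at 207, 434 and 581 in HS, a log2 change of -0.74 ± 0.31 (adjusted p = 0.106). HS replicate 1 was the lowest of the 6 libraries, and HS replicate 3 overlapped with Con. H2-Q10 made up 34.3% to 45.3% of the heavy chain sum in Con and 15.4% to 35.1% in HS.

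In the class I set, no gene other than Tap1 and Tap2 was called. H2-Q8 (-1.03), H2-T22 (0.43), H2-Bl (-0.40) and H2-T24 (0.36) had limma adjusted p of 0.180, 0.477, 0.687 and 0.345. Nlrc5, the class I transactivator, had a log2 change of 0.36 ± 0.14 (adjusted p = 0.0818) with all HS libraries above Con, B2m one of 0.16 ± 0.14 (adjusted p = 0.410), Erap1 0.21 and Tapbp -0.02. H2-Q1 was at 2.39, 2.74 and 3.02 RPKM in Con and at 1.35, 1.90 and 1.45 in HS, all below Con (-0.54 ± 0.18, adjusted p = 0.0504). Of the other pathway genes of class I, 3 of 14 tested rose, against 15.9% of all genes, among them Psmb9, an immunoproteasome subunit (1.04, adjusted p = 0.0326), and Sppl2a (0.42, adjusted p = 0.0373), which stood in this list although it encodes a protease that acts on the Cd74 remnant of class II. In the list of interferon-gamma-inducible genes 4 of 19 rose, against the same share of all genes, with Gbp7 (0.64, adjusted p = 0.0243) beside Psmb9, and 19 of 19 had a positive change, with a median of 0.75, as did 7897 of all 10204 genes, with a median of 0.14. Of the other class II pathway genes 1 of 15 rose, Lgmn, a lysosomal protease (0.41, adjusted p = 0.0340).

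**Figure D2:**
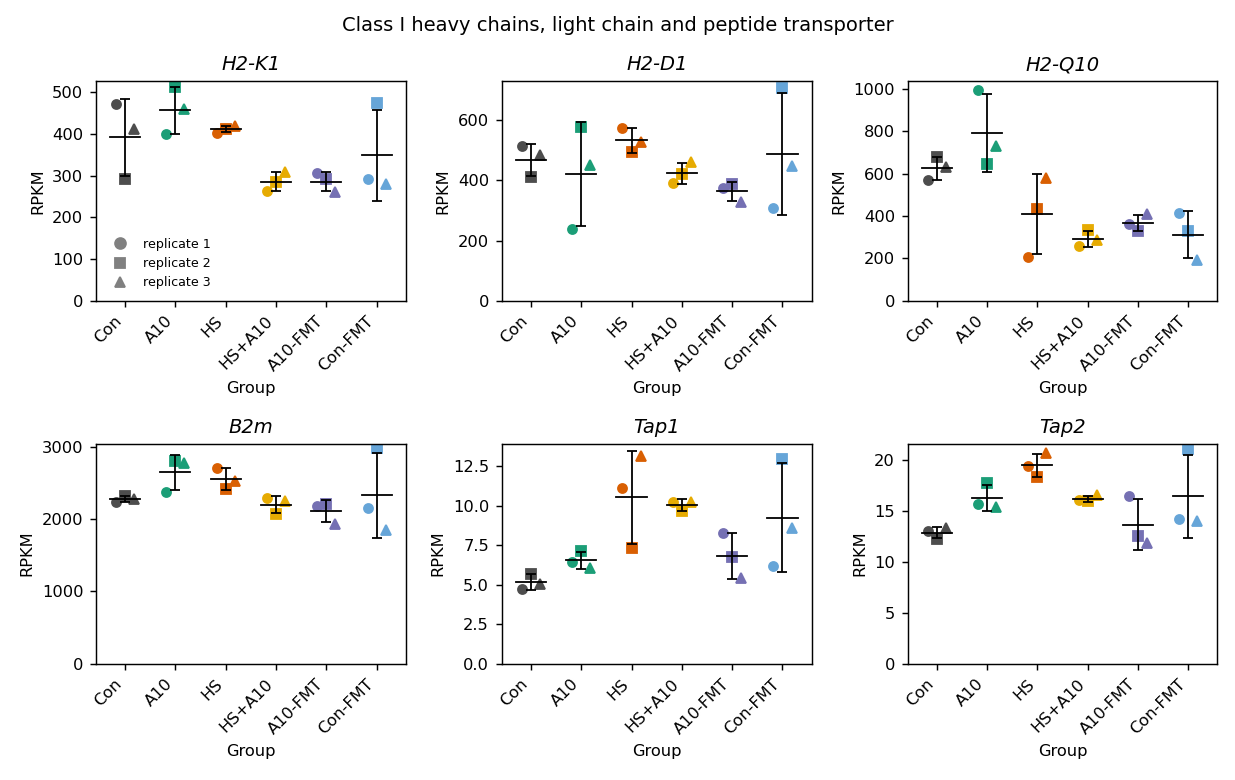
RPKM of 6 class I genes by group, with 1 point per library and the mean ± SD of 3. Tap1 and Tap2 of all 3 HS libraries lie above all 3 Con libraries, and H2-Q10 of HS spreads from 207 to 581 RPKM.

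**Figure D3:**
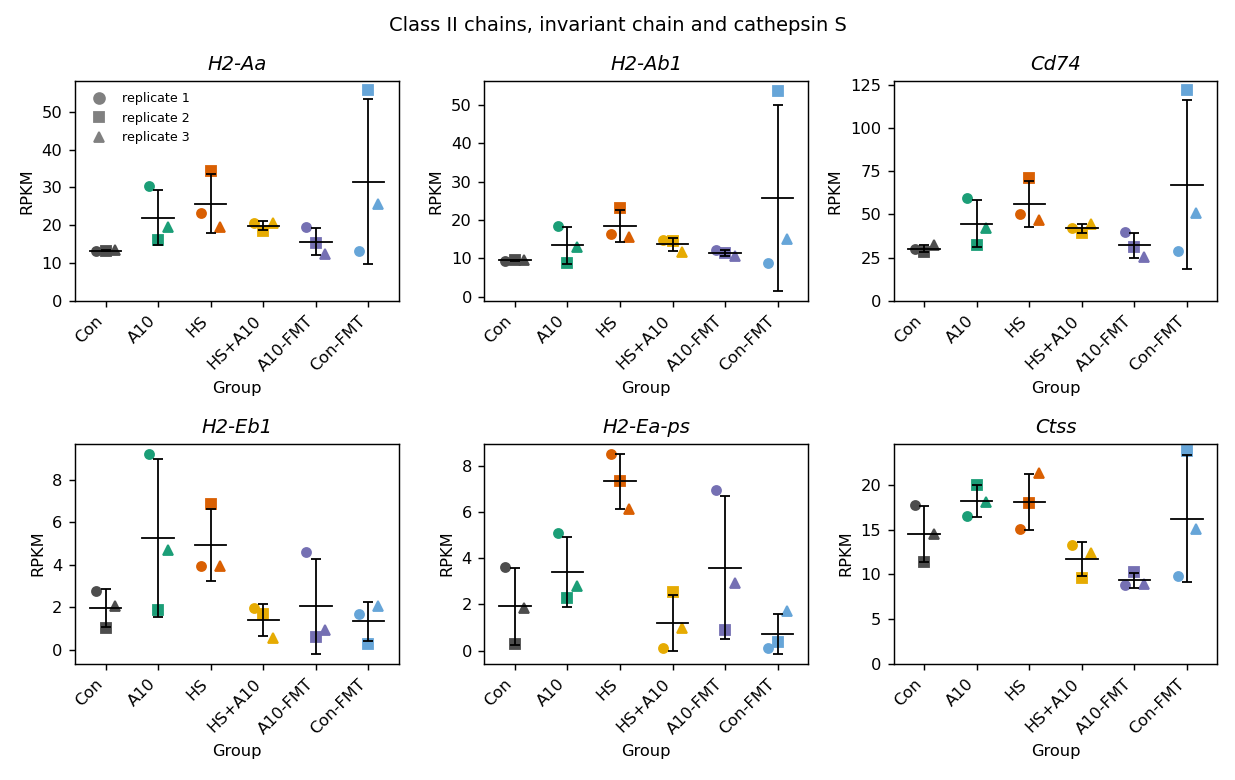
RPKM of 6 class II genes by group, with 1 point per library and the mean ± SD of 3. H2-Aa, H2-Ab1 and Cd74 differ little between the Con libraries and reach 55.8, 53.7 and 122 RPKM in Con-FMT replicate 2, the library with H2-Eb1 at 0.28 RPKM.

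A10 was compared with Con, whose libraries also serve in HS vs Con, to see what AOS alone did. None of the 32 genes was called by limma, with 10 at an unadjusted p under 0.05, and 0.0686% of all genes were called (0.049% higher and 0.0196% lower). The log2 changes were positive for 29 of 32, with a median of 0.31, and for 6917 of all 10204 genes, with a median of 0.07. For 16 of 32 all A10 libraries lay above all Con libraries, against 19.6% of all genes. For 0 of 32 did they all lie below, against 5.27%. These 16 included all 6 light chain and loading genes of class I. The separations were not counted without Con replicate 3 and A10 replicate 3. H2-T23 was at 51.5, 54.8 and 54.2 RPKM in Con and at 81.9, 91.3 and 82.1 in A10 (0.66 ± 0.27, adjusted p = 0.317). Its neighbour H2-T22 was at 11.8, 17.6 and 15.5 RPKM in Con and at 34.8, 26.6 and 27.5 in A10 (0.95 ± 0.41, adjusted p = 0.324). H2-Q4 had the smallest p (0.44 ± 0.14, adjusted p = 0.205), with 11.7 to 12.8 RPKM in Con and 16.5 to 17.7 in A10.

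H2-T24, H2-Q1, H2-T-ps and H2-Ke6 also lay higher in every A10 library, with log2 changes of 0.75, 0.49, 0.39 and 0.29, and H2-Q6, H2-D1 and H2-T10 had negative values (-0.97, -0.24 and -0.15). Class II had a median of 0.46 and class I one of 0.30. In A10, H2-Aa was at 30.3, 16.2 and 19.6 RPKM, all above Con (0.64 ± 0.36, adjusted p = 0.450), and H2-Ab1 at 18.5, 8.76 and 12.9, which overlapped with Con. H2-Q10 of A10 was at 996, 645 and 730 RPKM, and A10 replicate 1, with the highest H2-Q10 of all libraries, had the lowest H2-D1 (238 RPKM). Kupffer markers summed to 189 to 252 RPKM in A10. Without Con replicate 3 and A10 replicate 3 the class medians were 0.30 and 0.49 and 0 genes were called.

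HS+A10 was compared with HS to see what AOS dosing did under diet and STZ. This comparison shares the HS libraries with that of HS and Con and with those of the recipient groups below. H2-Ea-ps and the class Ib gene H2-Q9 were lower in HS+A10. H2-Ea-ps was at 0.10, 2.52 and 0.96 RPKM in HS+A10, against 6.11 to 8.51 in HS, a log2 change of -2.07 ± 0.54 (adjusted p = 0.0344). H2-Q9 was at 7.07, 5.53 and 7.14 RPKM in HS and at 2.91, 2.45 and 4.07 in HS+A10 (-0.88 ± 0.25, adjusted p = 0.0451). The groups did not overlap for either gene. The calls held in 17 of 26 settings (H2-Ea-ps) and 8 of 27 (H2-Q9). Here too the part of alleles in the H2-Ea-ps values was not tested.

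These 2 of 32 genes (6.25%) compare with 7.32% of all genes (2.95% higher and 4.37% lower). In every library 13 of 32 lay below HS, against 15.7% of all genes, and H2-Q8 alone above, against 11.6%. No gene was called without any 1 of the HS libraries, without HS+A10 replicate 1, or without Con replicate 3 and A10 replicate 3 together. H2-Ea-ps alone was called without any 1 of the Con or A10-FMT libraries, A10 replicate 3 or HS+A10 replicate 2, and H2-Q9 alone without HS+A10 replicate 3. H2-K1 was at 264, 285 and 308 RPKM in HS+A10, below the 403 to 419 of HS (-0.53 ± 0.19, adjusted p = 0.0955). Ctss was at 13.3, 9.59 and 12.4 RPKM (-0.59 ± 0.23, adjusted p = 0.132) and H2-Eb1 at 1.99, 1.68 and 0.55 (-1.32 ± 0.50, adjusted p = 0.121). Class II had a median of -0.39 (8 of 8 lower) and class I one of -0.14 (15 of 22 lower). Over all genes the median was -0.03 (5813 of 10204 lower).

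Tap1, which was higher in HS than in Con, was at 10.27, 9.65 and 10.25 RPKM in HS+A10, a log2 change from HS of -0.03 ± 0.21. H2-Aa was at 20.5, 18.6 and 20.6 RPKM, Cd74 at 41.97, 39.19 and 44.67 and H2-D1 at 390, 420 and 461. Outside the set, the endoplasmic reticulum chaperones Pdia3 (-0.68, adjusted p = 0.0072), Calr (-0.71, adjusted p = 0.0092) and Hspa5 (-1.42, adjusted p = 0.0095), of which Pdia3 and Calr belong to the class I loading complex, fell, 3 of 14 class I pathway genes, against 4.37% of all genes. Rfxank, a subunit of the factor that binds class II promoters, fell among 15 class II pathway genes (-0.99, adjusted p = 0.0252). Kupffer markers summed to 160 to 218 RPKM (0 of 13 called, 1 at an unadjusted p under 0.05), and 2 of 10 sinusoidal endothelial markers rose (Oit3, 0.75, and Pecam1, 0.39), with sums of 88.6 to 116 RPKM against 66.6 to 82.3 in HS.

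The effect of AOS in HS minus its effect in Con tests whether AOS acted differently under diet and STZ. No gene of the set was called (limma), with 11 at an unadjusted p under 0.05, and 1 of all genes (0.0098%) was called. The differences were negative for 30 of 32 genes, and for 7035 of all 10204 genes. The lowest p was that of H2-Ea-ps (-2.79 ± 0.77, adjusted p = 0.173), followed by H2-Ke6 (-0.50 ± 0.14, adjusted p = 0.179) and H2-Eb1 (-2.26 ± 0.71, adjusted p = 0.213). The class II median was -0.90 and the class I median -0.49, against -0.09 over all genes.

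A10-FMT was compared with HS to see what microbiota from AOS-dosed donors did. Ctss, Tap2 and H2-Q9 fell. Ctss (chr3:95526786-95556403) was at 15.10, 18.01 and 21.38 RPKM in HS and at 8.78, 10.3 and 8.95 in A10-FMT, a log2 change of -0.88 ± 0.23 (adjusted p = 0.0151). Tap2 was at 16.5, 12.6 and 11.9 RPKM in A10-FMT, below the 18.3 to 20.6 of HS (-0.49 ± 0.13, adjusted p = 0.0169). H2-Q9 was at 3.10, 2.89 and 3.55 RPKM, below the 5.53 to 7.14 of HS (-0.85 ± 0.25, adjusted p = 0.0236).

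These 3 of 32 genes (9.38%) compare with 23.1% of all genes, 21.0% lower and 2.09% higher, around a median log2 change of -0.16. After median or quantile scaling 0 genes of the set were called (limma), and without HS replicate 3 also 0. There were 8 without Con-FMT replicate 2, 6 without A10-FMT replicate 1 and 5 without Con-FMT replicate 3, and 1 each without A10-FMT replicate 2 (Ctss) and replicate 3 (H2-Q9). Of the 32 genes 28 had a negative change, as did 7972 of all 10204 genes. In every library 13 of the 32 lay below HS, against 32.8% of all genes, and 0 above, against 4.59%. Class II had a median of -0.73 (8 of 8 lower) and class I one of -0.25 (20 of 22 lower), and after median scaling -0.54 (8 of 8) and -0.08 (16 of 22).

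Cd74 was at 40.0, 31.0 and 25.3 RPKM in A10-FMT, all below HS (-0.79 ± 0.36, adjusted p = 0.122), and H2-Ab1 at 12.2, 11.4 and 10.7, all below HS (-0.62 ± 0.42, adjusted p = 0.287). H2-Aa at 19.6, 15.2 and 12.3 RPKM overlapped with HS by a narrow margin in A10-FMT replicate 1 (-0.67 ± 0.36, adjusted p = 0.184). H2-Ea-ps was at 6.95, 0.88 and 2.91 RPKM and H2-Eb1 at 4.60, 0.60 and 0.93. A10-FMT replicate 1 had the highest value of all 5 of these genes in its group.

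H2-K1 was at 306, 292 and 260 RPKM, below the 403 to 419 of HS (-0.53 ± 0.19, adjusted p = 0.0527), H2-D1 at 374, 390 and 328, below the 495 to 575 of HS (-0.55 ± 0.28, adjusted p = 0.159), and B2m at 2187, 2213 and 1939, below the 2419 to 2716 of HS (-0.28 ± 0.14, adjusted p = 0.145). H2-Q10 at 362, 331 and 408 RPKM lay within the range of HS (-0.03 ± 0.31). Tap1 at 8.30, 6.76 and 5.43 overlapped with HS replicate 2 (-0.54 ± 0.21, adjusted p = 0.0728).

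The Kupffer cell and macrophage markers summed to 112 to 141 RPKM in A10-FMT and 190 to 275 in HS, without overlap. Of 13 tested, 8 fell, against 21.0% of all genes, with Marco (-2.07, adjusted p = 0.0080), a scavenger receptor, the complement subunit C1qa (-0.87, adjusted p = 0.0100) and the Kupffer lectin Clec4f (-0.75, adjusted p = 0.0101) having the smallest p. Sinusoidal endothelial markers summed to 51.5 to 63.9 RPKM (4 of 10 fell, with Pecam1 -0.46, Lyve1 -0.49 and Tek -0.46) against 66.6 to 82.3, and dendritic markers to 8.48 to 11.2 against 11.2 to 15.3. The part of these cells in the lower class II and Ctss values was not tested. After median scaling 516 of all 10204 genes were called lower, and the marker calls were not followed under that scaling.

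In the lists around the set, read against the same 21.0%, 5 of 14 class I pathway genes, Sppl2a among them, fell, with Calr (-0.74, adjusted p = 0.0025), Pdia3 (-0.62, adjusted p = 0.0041) and Canx (-0.46, adjusted p = 0.0090), chaperones of the loading complex, first, and Irf2, an interferon regulatory factor, rose (0.71, adjusted p = 0.0466). Of 15 class II pathway genes 7 fell, led by Lgmn (-0.70, adjusted p = 0.0019), Rfxank (-1.06, adjusted p = 0.0073) and cathepsin D, Ctsd (-0.29, adjusted p = 0.0102). Of 19 interferon-gamma-inducible genes 2 fell, Irgm1 (-0.94, adjusted p = 0.0043) and Ifi47 (-0.90, adjusted p = 0.0365), which is a lower share than that of all genes. A negative change was seen in 19 of 19, with a median of -0.79, and in 7972 of all 10204 genes, with a median of -0.16.

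Con-FMT was compared with HS as the control transfer. H2-Ea-ps and Cd1d1 were lower in Con-FMT. H2-Ea-ps was at 0.10, 0.39 and 1.72 RPKM in Con-FMT (-2.36 ± 0.54, adjusted p = 0.0064). This call held in 27 of 27 settings that tested the gene at this threshold. None of the settings took account of alleles, whose part in the H2-Ea-ps values was not tested. Cd1d1 (chr3:86995834-86999441) was at 90.1, 82.4 and 93.5 RPKM in HS and at 73.5, 77.2 and 68.9 in Con-FMT (-0.27 ± 0.08, adjusted p = 0.0283), and after median scaling its change was -0.16 (adjusted p = 0.156). For both genes the groups did not overlap.

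These 2 of 32 genes (6.25%) compare with 23.6% of all genes (4.61% higher and 19.0% lower), and the median over all genes was -0.12. In every library 4 genes lay below HS, against 27.9% of all genes, and H2-Q8 alone above, against 7.11%. Of all 10204 genes 3066 were higher. The class II median was 0.01, with 4 of 8 higher, and the class I median -0.18, with 6 of 22 higher. Without Con-FMT replicate 2 these became -0.52 with 0 of 8 higher and -0.31 with 4 of 22 higher, and 8 genes were called, among them H2-K1, B2m and Nlrc5. There were 5 without A10 replicate 2 and 4 without Con-FMT replicate 3, the library with pancreatic acinar mRNAs. Those 4 included H2-T22 and H2-T23 but not Cd1d1. H2-Ea-ps alone was called without HS replicate 1, HS replicate 3, Con-FMT replicate 1, or Con replicate 3 and A10 replicate 3 together. H2-Aa was at 13.3, 55.8 and 25.5 RPKM in Con-FMT, H2-Ab1 at 8.79, 53.68 and 14.99 and Cd74 at 28.5, 122 and 50.9, so that replicate 1 was close to Con, replicate 3 was close to the HS libraries and replicate 2 had the highest level of the 18 libraries. H2-Eb1 went the other way, with 1.67, 0.28 and 2.05 RPKM, all below HS (-1.40 ± 0.50, adjusted p = 0.0555).

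Con-FMT replicate 2 was also the highest library for B2m (2987 RPKM), H2-D1 (706), H2-T22 (48.8), H2-T23 (112), H2-DMa (3.99), H2-DMb1 (3.96) and Ctss (23.9). Its interferon-gamma-inducible genes summed to 651 RPKM, against 283 and 314 in the other Con-FMT libraries and 667 in HS replicate 3, its Kupffer markers to 230 against 151 and 166, and its dendritic markers to 14.1 against 8.37 and 8.76. Its B cell markers summed to 0.72 RPKM. The part of any of these in its class II level was not tested. Of the class I pathway list, against 4.61% of all genes higher and 19.0% lower, 1 of 14 rose (Irf2, 0.80, adjusted p = 0.0259), and of the class II pathway list, Irf8, a myeloid transcription factor, rose (0.34, adjusted p = 0.0452) and 3 of 15 fell: Nfyc (-0.39, adjusted p = 0.0111) and Nfyb (-0.31, adjusted p = 0.0300), subunits of the factor that binds CCAAT, and Lgmn (-0.37, adjusted p = 0.0416).

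The 2 recipient groups were compared directly to see what the donor's AOS changed. Cd1d1 alone was called, with 99.1, 92.9 and 80.6 RPKM in A10-FMT, all above the 68.9 to 77.2 of Con-FMT (0.30 ± 0.08, adjusted p = 0.0202). This was 1 of 32 genes (3.12%), against 18.8% of all genes (6.72% higher), and it was also the only one without overlap, against 12.1% of all genes above and 19.4% below. The log2 change of Cd1d1 from HS was 0.03 in A10-FMT (limma adjusted p = 0.803) and -0.27 in Con-FMT (adjusted p = 0.0283). Without A10-FMT replicate 1, 0 genes were called, and without Con-FMT replicate 1 there were 6, among them H2-Aa, H2-Ab1 and Cd74. Without Con-FMT replicate 3, the library with pancreatic acinar mRNAs, there were 4, Cd1d1 not among them (adjusted p = 0.0696). Without A10-FMT replicate 2 Cd1d1 also lost its call (adjusted p = 0.0721), and H2-Ea-ps was called instead (1.79, adjusted p = 0.0480). Cd1d1 shares 25.8% of the 50-base words of its transcript with its neighbour Cd1d2, so that reads of the pair may have been split between them. The class II median was -0.53 and the class I median -0.24, and without Con-FMT replicate 2 they were -0.09 and -0.02. Ctss had a change of -0.66 ± 0.23 (adjusted p = 0.0594) and H2-Ea-ps of 1.27 ± 0.54 (adjusted p = 0.117).

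Of the lists around the set, 4 of 14 class I pathway genes fell, against 1228 of all 10204 genes, with Pdia3 (-0.86, adjusted p = 3.81e-04), Hspa5 (-1.87, adjusted p = 5.02e-04) and Calr (-0.72, adjusted p = 0.0024) first. Irf8 fell among 15 class II pathway genes (-0.59, adjusted p = 0.0030) and Irgm1 among 19 interferon-gamma-inducible genes (-0.58, adjusted p = 0.0466). Of 13 Kupffer markers 0 were called (limma), with 4 at an unadjusted p under 0.05.

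The 6 called genes took these values in the groups not yet given. Tap1 was at 6.42, 7.14 and 6.06 RPKM in A10, all above Con, and at 6.17, 13 and 8.58 in Con-FMT. Tap2 was at 15.65, 17.69 and 15.36 RPKM in A10, at 16.06, 15.95 and 16.54 in HS+A10 and at 14.17, 21.09 and 13.99 in Con-FMT, where replicate 2 passed every HS library. Both transporter genes thus had their lowest group mean in Con. Ctss was at 17.73, 11.40 and 14.56 RPKM in Con, at 16.50, 20.07 and 18.16 in A10 and at 9.80, 23.89 and 15.09 in Con-FMT. H2-Q9 was at 6.44, 6.07 and 6.72 RPKM in Con, at 5.39, 9.08 and 7.90 in A10 and at 3.34, 7.37 and 2.45 in Con-FMT. The Con-FMT libraries spread widely for both, with replicate 2 on top. Cd1d1 was at 81.91, 87.38 and 86.55 RPKM in Con, at 105, 98.6 and 97.3 in A10 and at 97.0, 102 and 90.2 in HS+A10, so that Con-FMT had its lowest values. H2-Ea-ps was at 5.11, 2.28 and 2.78 RPKM in A10.

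**Figure D4:**
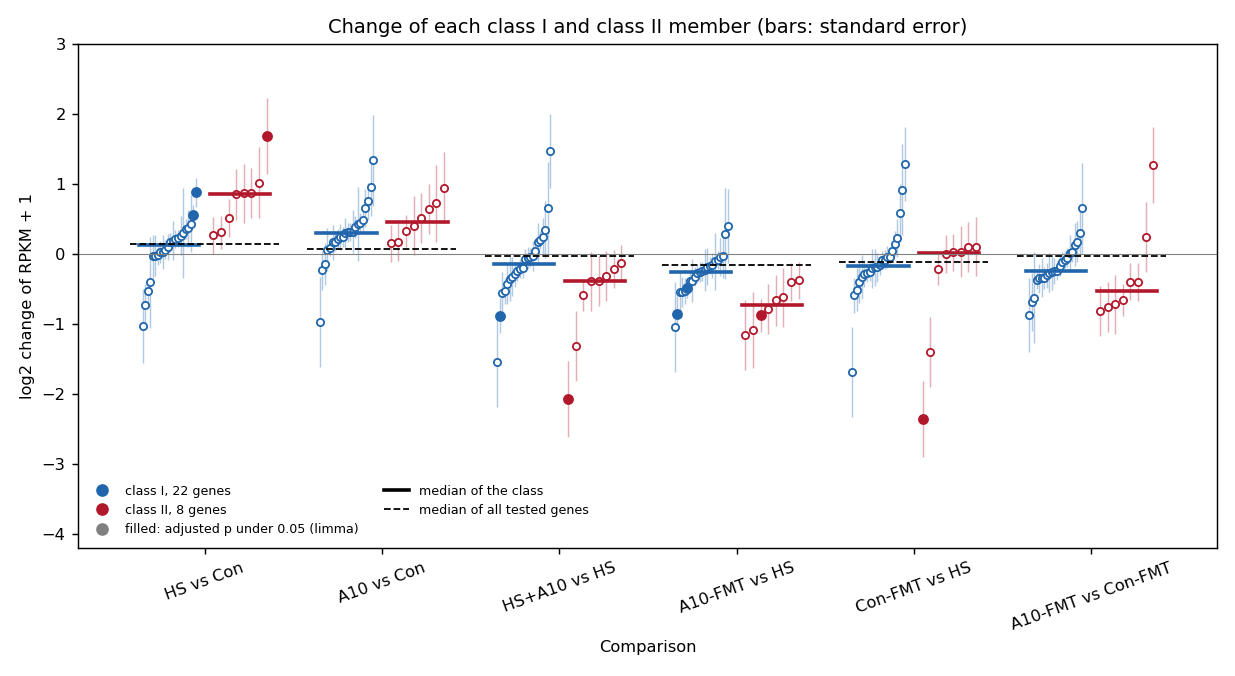
log2 change of RPKM + 1 with its standard error for 22 class I and 8 class II genes in 6 comparisons, with filled points for genes called by limma. The solid bars are the medians of each class and the dashed lines those of all tested genes, and the class II median lies at 0.86 in HS vs Con and at -0.73 in A10-FMT vs HS.

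The pairwise correlations of class II genes had a higher median than those of class I genes. Over the 18 libraries, which include the differences between groups, the median Pearson r of gene pairs was 0.53 within class II, 0.28 within class I and 0.24 between the classes. No such median was computed over all genes or without Con-FMT replicate 2. That library had the highest Cd74, H2-Aa, H2-Ab1, H2-DMa and H2-DMb1. The 5 genes most like H2-Aa were Cd74 (r = 0.989), H2-Ab1 (0.944), H2-DMb1 (0.896), H2-DMa (0.801) and Gpsm3 (0.783), so that 4 of the 5 were class II genes of the set. The 5 most like H2-K1 were Itgal (0.895), H2-Q9 (0.889), Fermt3 (0.872), C1qb (0.869) and Rac2 (0.868), that is, 1 other class I gene. H2-K1 and H2-D1, the classical heavy chains, had an r of 0.57, and H2-K1 and B2m one of 0.79.

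The ratio of Cd74 to H2-Aa stayed between 1.96 and 2.41 in all 18 libraries and that of H2-Ab1 to H2-Aa between 0.54 and 0.96. The E chains did not keep such a ratio to H2-Aa. That of H2-Eb1 went from 0.005 in Con-FMT replicate 2 to 0.30 in A10 replicate 1, and that of H2-Ea-ps from 0.0049 in HS+A10 replicate 1 to 0.37 in HS replicate 1. H2-Ea-ps and H2-Eb1 had an r of 0.75 with each other, and H2-Ea-ps one of 0.15 with H2-Aa. In Con, H2-Ea-ps was at 3.61 RPKM in replicate 1 and at 0.30 in replicate 2, while H2-Aa was at 13.1 and 13.3. In no case did the transcripts of H2-Ea-ps or H2-Eb1 share a 50-base word with another gene. Whether reads of alleles that differ from the reference were lost in mapping was not tested, so these ratios are of mapped reads.

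The genes of the set were among the more variable ones between libraries of a group. The median SD within groups on the log2(RPKM + 1) scale was 0.14 over all tested genes, 0.31 over class I and 0.50 over class II, and 12 of the 32 genes lay above the 95th percentile of all tested genes. No such SD was computed without Con-FMT replicate 2, which had the highest Cd74, H2-Aa, H2-Ab1, H2-DMa and H2-DMb1 of all libraries. H2-Bl, a polymorphic pseudogene in the annotation, had the highest SD (0.90) and went from 0.18 RPKM in A10-FMT replicate 1 and Con-FMT replicate 3 to 8.93 in A10 replicate 1 and 8.20 in Con-FMT replicate 1. H2-Q6 was listed at 0 in 5 libraries and H2-Q8 in 7, no library had both at 0, and 6 had both above 0. All 3 HS libraries had H2-Q8 at 0 and H2-Q6 at 3.87, 2.77 and 4.15 RPKM. A10 replicate 2 had H2-Q6 at 5.82 RPKM and H2-Q8 at 0, and A10 replicate 3 had H2-Q6 at 0 and H2-Q8 at 4.64. Zeros also occurred in 25 of the 4283 genes that averaged 10 RPKM or more, and the origin of the 0 values was not tested.

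In the T series, correlations of both signs occurred. H2-T22 and H2-T23, which are neighbours (chr17:36037128-36042747 and chr17:36029773-36032855), had an r of 0.94, while H2-T22 and H2-T10 had one of -0.61. H2-T22 shares 32.0% of its 50-base words with H2-T10, and H2-Q6, H2-Q7 and H2-Q10 share 32.0%, 28.4% and 19.7% with other genes, so values of these genes are uncertain where reads could be split. For H2-Q8 and H2-Q9 the sharing was not measured, and the H2-Q9 calls carry the same uncertainty. For H2-D1 and H2-K1 the share was 14.3% and 8.11%, for H2-Aa 0.60%, and for H2-Ab1, Cd74, B2m and Ctss 0. These shares are between reference transcripts. Reads were mapped with at most 2 mismatches, and the loss of reads from alleles that differ from the reference was not measured for any gene. H2-Ke6 shares 96.3% with Gm20427. In Con-FMT, H2-T22 was at 46.2 and 48.8 RPKM in replicates 1 and 2 and at 12.7 in replicate 3, and H2-T10 at 3.67, 9.65 and 9.29.

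**Figure D5:**
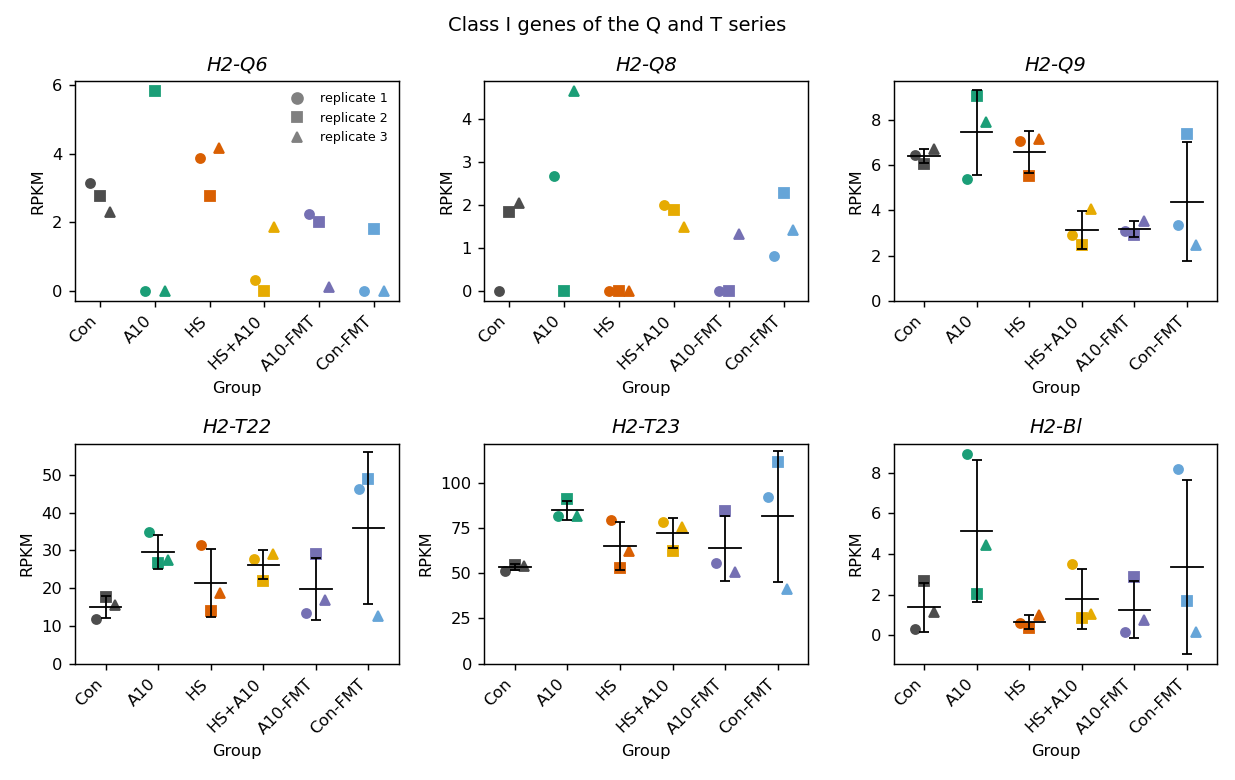
RPKM of 6 class I genes of the Q and T series by group, with 1 point per library and, for genes with no library at 0, the mean ± SD of 3. H2-Q8 is at 0 in all 3 HS libraries, where H2-Q6 is at 2.77 to 4.15 RPKM, and H2-Q9 of HS+A10 and A10-FMT lies below that of HS.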

How the data were processed

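The 44 genes and the gene lists were chosen with earlier results of these data known, and the lists were written from general knowledge. Polyadenylated RNA was sequenced, and the authors mapped reads to reference genes allowing 2 mismatches with SOAPaligner 2.20 by the paper's methods (the submitters' processing notes name Bowtie 0.12.2 and mm10), and deposited RPKM values with 2 decimals. Read numbers are not given in the sources used here, and intervals that need them are left out. The steps between low values of 47 genes put the depth of the libraries at 0.961 to 1.03 of their mean. In the table, 26 symbols had been turned into dates and 3 occurred on more than 1 row, none of them in this set.

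log2(RPKM + 1) of the 10204 genes averaging 1 RPKM or more was fitted with limma 3.58.1 in R 4.3.3, with 1 mean for each of 6 groups over 18 libraries and a variance trend. P-values are two-sided, adjusted by the Benjamini-Hochberg method over all genes tested, and a gene was called under 0.05. Fold changes on this scale understate those of low genes. DEGseq, the test of the paper, was not used, since libraries of a group do not enter it as replicates. Single genes were also compared by an exact permutation test of the means of 3 libraries against 3, whose smallest p is 0.1. Every tested gene of the set was named, called ones with all libraries, and in the other lists at most 3 called genes per comparison, of which 1 is not reported here. Alternatives were another pseudocount, other filters, scalings, thresholds and sets of groups, no variance trend, a replicate block, and each library left out. The fit was tested on simulated data with known changes. Tables and figures were made in Python 3.11.15 with pandas 2.3.3, numpy 2.4.6 and matplotlib 3.10.9. Words of 50 bases were counted in GENCODE transcripts.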

Additional observations from a re-analysis of the deposited data

How the results depend on the processing

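Of 62 changes of single genes, 1692 values were computed under alternatives: 1537 kept direction and side of the threshold, 79 lost and 58 gained a call, and 18, over 7 changes, had the other sign. Read numbers are unknown, so low genes carry no counting limit. The cause of each shift was not tested. Genes of the marker and pathway lists outside the set were not followed under these alternatives.

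The number of genes of the set called in HS vs Con (3) became 1 after median scaling, 6 with only those groups fitted and 0 at the paper's threshold, which is stricter in p and asks for a minimum fold, with 1 to 8 when libraries were left out. In A10-FMT vs HS (3) it became 0 after quantile normalization, 0 after median scaling, 5 with only those groups and 0 at the paper's threshold (0 to 8). In Con-FMT vs HS (2) it became 1 with a minimum of 5 RPKM, 1 after quantile normalization, 1 after median scaling, 1 with only those groups and 0 at the paper's threshold (1 to 8). In A10-FMT vs Con-FMT (1) it became 2 after quantile normalization and 0 with the 4 groups of the paper, with only those groups and at the paper's threshold (0 to 6). In HS+A10 vs HS (2) it became 1 with a pseudocount of 0.1, a minimum of 5 RPKM, quantile normalization or median scaling, and 0 without a filter, with only those groups and at the paper's threshold (0 to 3). In A10 vs Con (0) it became 1 (H2-T23) with only those groups (0 to 0). The class II median in HS vs Con (0.86) was 0.31 without a filter, which adds the genes near 0 RPKM, and 0.66 to 0.97 when libraries were left out.

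After median scaling the HS vs Con change was -0.087 for H2-K1, -0.0005 for H2-D1, -0.024 for B2m, -0.14 for H2-Q9 and -0.13 for Cd1d1, and after quantile normalization -0.13 for H2-Q9 and -0.10 for Cd1d1. The A10-FMT vs HS change of H2-Q10 was 0.16 and 0.10. When libraries were left out, H2-K1 (-0.10 to 0.25) and H2-Q9 (-0.029 to 0.13) in HS vs Con and H2-Q10 (-0.46 to 0.29) and Cd1d1 (-0.033 to 0.11) in A10-FMT vs HS changed sign.

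A fit with the replicate number as a replicate block left 1 gene called in HS+A10 vs HS (H2-Ea-ps, not H2-Q9) and 2 in HS vs Con, where H2-Ea-ps lost its call (adjusted p = 0.0506), and gave 3 in Con-FMT vs HS, where H2-Eb1 was added. Deviations of same-numbered libraries had r of -0.126 to 0.262 (median 0.007, over 0.1 in 12 of 45 pairs), and other pairs a median of -0.007. Of 18 libraries, 10 correlated best with one of their own number. Whether the numbers pair the libraries is not settled by these values.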
